A study of Mus musculus with 32 samples.

Results

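The genes described here are those of hepatic lipogenesis and cholesterol synthesis that SREBP and ChREBP control. They were chosen by symbol from a list of 41 genes, and 40 of them were found among the 21880 genes of the authors' deposited table; *Pnpla3*, which encodes a lipid droplet lipase, was not analysed here. By role, 7 genes act in fatty acid synthesis, 6 in elongation and desaturation, 9 in triglyceride assembly, lipid droplets and lipolysis, 6 in transcription and sterol sensing, and 12 in cholesterol synthesis.

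Livers were taken from mice at 2 months (2M) and 6 months (6M) of age, as 4 libraries for each of the 8 groups, 32 altogether. Floxed mice of mixed strain background were crossed with mice that express Cre recombinase from the albumin promoter, so that deletion is directed to hepatocytes and other liver cells keep the floxed genes. L-*Dnm1l*–KO mice lack *Dnm1l*, which encodes the fission protein DRP1, DKO mice lack the fusion genes *Mfn1* and *Mfn2*, and TKO mice lack all 3; The controls of each age are labelled as WT of the *Dnm1l* (Drp1) line, also for the DKO and TKO mice, which come from other floxed lines, so that line and genotype cannot be told apart in those comparisons. The table gives 1 comparison with age-matched WT for each knockout genotype and age, as a log2 fold change with its standard error (SE) and *P* values, and 1 mean normalized count per gene over all libraries, so no library is shown on its own and the replicate error is that of the SE. In this text a gene is called higher or lower where the Benjamini-Hochberg adjusted *P* value of the deposited DESeq2 Wald test is under 0.05.

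SREBP-1c, encoded by *Srebf1*, and ChREBP, encoded by *Mlxipl*, switch on fatty acid and triglyceride synthesis after feeding, in response to insulin and to sugar metabolites. SREBP-2, encoded by *Srebf2*, drives cholesterol synthesis when sterols are scarce. Both SREBPs are held in the endoplasmic reticulum by SCAP and the INSIG proteins and are cut free in the Golgi, so the level of their transcripts is only 1 of the layers at which they are controlled.

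The targeted genes were read at low levels. *Mfn2*, with a mean normalized count of 9.036, was lower in TKO at 2M by a log2 fold change of −2.05 ± 0.53 (SE) and in DKO at 2M by −3.43 ± 0.66. At 6M *Mfn2* was lower in DKO by −1.59 ± 0.52 and had −1.16 ± 0.48 without an adjusted *P* value in TKO, and *Mfn1* (mean 4.642) was called only in DKO at 6M, with −3.74 ± 0.98. *Dnm1l*, with a mean of 8.7, had −0.42 ± 0.52 in L-*Dnm1l*–KO and 0.58 ± 0.48 in TKO at 2M, and −0.44 ± 0.47 and −0.37 ± 0.47 at 6M, none of which passed the test. The row sums all exons of *Dnm1l*, the floxed ones and the rest, and genotypes are named here as labelled. All 10 hepatocyte markers checked were read, *Alb* highest with a mean of 4958, whereas the 3 adipocyte markers with a row were between 0.133 and 2.58.

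How the rows relate to the 2 strands bears on every level and fold change below. The libraries keep the strand of the RNA, but with which strand setting they were counted is not given in the sources used here. Of the 100 rows with the highest mean, 92% had exons overlapped by a coding gene on the opposite strand in GENCODE M21, against 4804 of all 21880 genes. Among the 40 genes, 4 overlapped a coding gene in this way (*Acss2*, *Fdft1*, *Srebf1* and *Mogat1*), 7 overlapped a noncoding gene and 29 overlapped none. A row, and with it its fold changes, may therefore hold reads of the opposite strand, and that part of the values was not tested. Rows facing members discussed below are given with their mean or their values. For named genes outside the 40, the facing rows are not given here.

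Levels differed widely between members. Per kb of exon, *Scd1*, which encodes the stearoyl-CoA desaturase that makes oleate, stood highest with a mean normalized count of 157.0, followed by *Fdft1* with 36.63, *Cidec* with 32.38 and *Acss2* with 30.59. The rows of the acetyl-CoA carboxylase genes were far lower, at 0.325 for *Acaca* and 0.8436 for *Acacb*, and that of *Fasn*, the fatty acid synthase gene, stood at 1.964. *Fdft1* and *Acss2* overlap coding genes on the opposite strand. These are levels of rows, and with the strand setting not given, whether they rank the transcripts was not tested. Without regard to length, 26 of the 40 genes had a mean of at least 10, 10 had between 1 and 10, and *Mogat1*, *Idi1*, *Mvk* and *Fdps* were under 1 and are not discussed further. Their median was 16.3, and that of all genes 1.52.

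**Figure D1:**
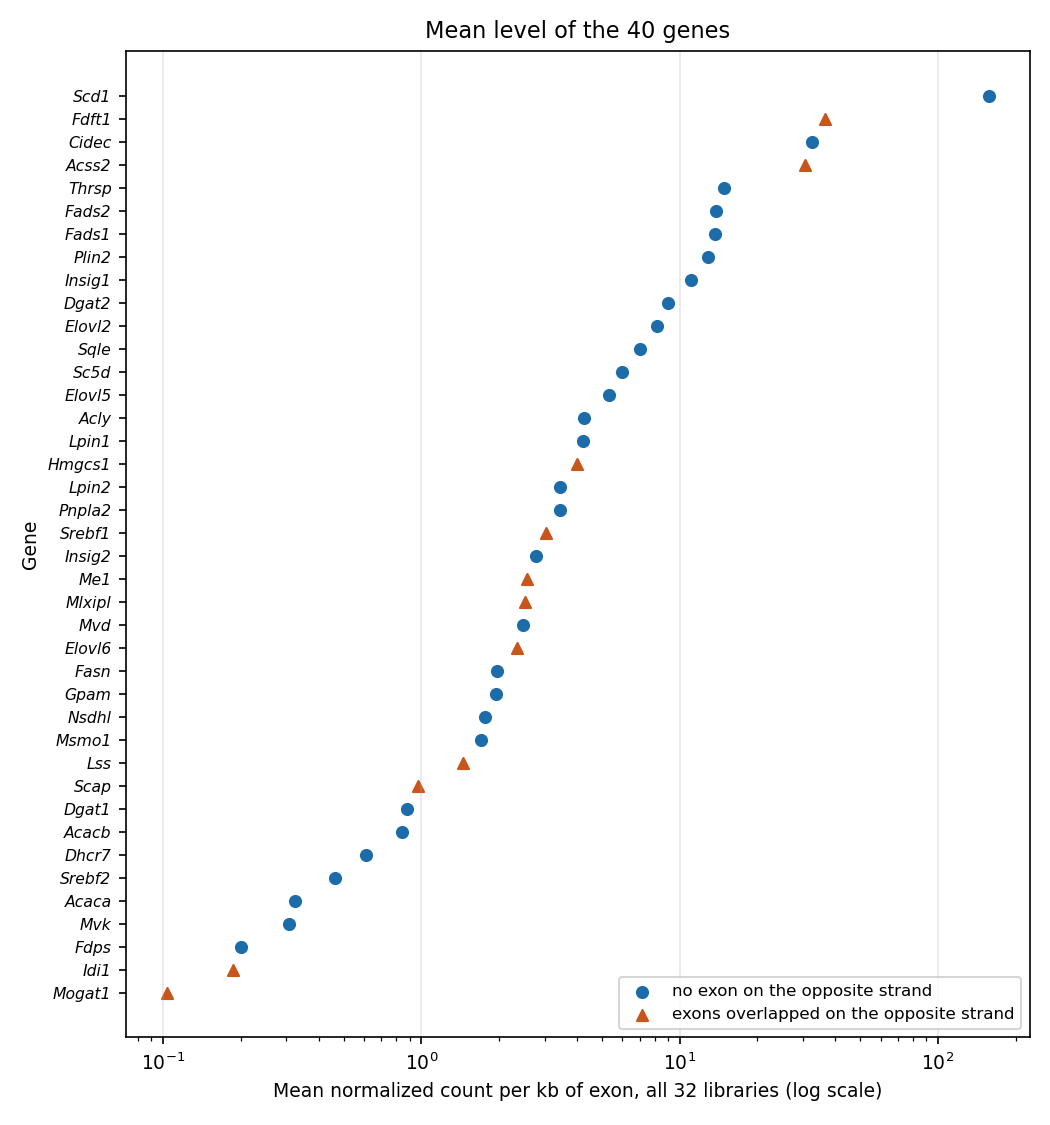
Mean normalized count per kb of exon (log scale) for each of the 40 genes over all 32 libraries, 1 point per gene; triangles mark the 11 genes whose exons are overlapped on the opposite strand. *Scd1* stands highest at 157.0 and *Mogat1* lowest at 0.1039.

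Promoters of 3 members are shown because *Fasn* and *Acly* had the age-dependent decrease described below, and because *Hmgcs1* holds a sterol regulatory element. They are the 250 bases before the start annotated by RefSeq on GRCm38.p6, read 5′ to 3′ along the gene, and capitals mark the motifs found on either strand. *Fasn* lies on the minus strand of chromosome 11, with the window at chr11:120824548-120824797; *Acly*, the ATP citrate lyase gene, lies on the minus strand at chr11:100528001-100528250; *Hmgcs1*, the HMG-CoA synthase gene, lies on the plus strand at chr13:119690101-119690350.
Fasn: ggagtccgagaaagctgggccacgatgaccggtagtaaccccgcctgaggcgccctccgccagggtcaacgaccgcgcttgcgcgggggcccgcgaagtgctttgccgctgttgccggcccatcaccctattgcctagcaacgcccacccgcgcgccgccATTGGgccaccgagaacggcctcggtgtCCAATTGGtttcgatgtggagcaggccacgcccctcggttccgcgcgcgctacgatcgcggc
Acly: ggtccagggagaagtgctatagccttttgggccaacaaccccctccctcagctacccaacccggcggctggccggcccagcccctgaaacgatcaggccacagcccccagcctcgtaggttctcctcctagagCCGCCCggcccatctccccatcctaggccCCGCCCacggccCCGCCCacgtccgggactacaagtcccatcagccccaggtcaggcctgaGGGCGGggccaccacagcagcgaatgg
Hmgcs1: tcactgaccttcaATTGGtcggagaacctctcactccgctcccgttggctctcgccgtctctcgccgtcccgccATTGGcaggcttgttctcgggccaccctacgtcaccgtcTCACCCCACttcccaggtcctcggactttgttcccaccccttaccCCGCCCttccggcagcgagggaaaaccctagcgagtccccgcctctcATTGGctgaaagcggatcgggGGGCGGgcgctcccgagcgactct

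The *Fasn* window holds 3 CCAAT boxes, a pair of which overlap on opposite strands, the *Acly* window 4 GC boxes (GGGCGG), and the *Hmgcs1* window 1 sterol regulatory element (TCACNCCAC), 3 CCAAT boxes and 2 GC boxes. RefSeq windows were found for 34 of the 41 listed genes, with 48 starts in all. The sterol regulatory element was found in 2 of these windows, those of *Hmgcs1* and of 1 *Mlxipl* start, which is 4.17%, against 1.05% of 32851 windows of the same length. The E-box CACGTG was in 14.6% of the members' windows and in 6.02% of all, CCAAT in 52.1% and 33.8%, and GGGCGG in 58.3% and 32.7%. These matches describe letters only.

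The largest set of calls was in DKO livers at 6M. There, 19 of the 36 genes with an adjusted *P* value were lower than in WT and none was higher, which is 52.8%, whereas 9.42% of all genes tested were lower and 5.7% higher. Coding genes with no opposite-strand gene were often lower in this comparison. Of those that also had a mean of at least 10, 34.4% were lower, and among the members of this class 12 of 19, or 63.2%. The median log2 fold change of the 36 members with a mean of at least 1 was −1.36, and that of all genes with such a mean −0.32. Set against the median of their own class, which was −0.85, the members with no opposite-strand exon and a mean of at least 10 had a median of −0.52.

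Fatty acid synthesis genes were lower in 5 of 7 cases in DKO livers at 6M. *Fasn* fell most, by a log2 fold change of −2.86 ± 0.45 or 7.26-fold (adjusted *P* = 4.3e-07). *Acly*, whose product makes cytosolic acetyl-CoA from citrate, had −2.45 ± 0.52 (adjusted *P* = 0.00026), and *Acacb*, the carboxylase at the mitochondrial surface, −2.49 ± 0.68 (adjusted *P* = 0.0055). *Thrsp*, a lipogenic target gene also known as Spot 14, had −1.77 ± 0.46 (adjusted *P* = 0.0036), and *Me1*, the malic enzyme gene that supplies NADPH, −1.65 ± 0.56 (adjusted *P* = 0.027). *Acaca*, the cytosolic carboxylase gene, had −1.71 ± 0.65 and missed the threshold (adjusted *P* = 0.052). *Acss2*, which makes acetyl-CoA from acetate, was above 0 with 0.18 ± 0.15 and did not pass either (adjusted *P* = 0.43). It overlaps coding genes on the opposite strand. Genes of that class with a mean of at least 10 had a median of 0.3 in this comparison, and 22.7% of them were below 0.

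Elongation and desaturation genes were lower in 5 of 6 cases. The elongase genes *Elovl5*, *Elovl6* and *Elovl2* had log2 fold changes of −2.28 ± 0.53, −1.95 ± 0.41 and −1.33 ± 0.43, with adjusted *P* values of 0.0011, 0.00024 and 0.022. *Scd1* was lower by −2.07 ± 0.44, or 4.2-fold (adjusted *P* = 0.00028), and the delta-6 desaturase gene *Fads2* by −1.36 ± 0.41 (adjusted *P* = 0.012). For *Fads1*, the delta-5 desaturase gene, the value was −0.67 ± 0.28 (adjusted *P* = 0.075). All 6 log2 fold changes of this group were below 0.

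Cholesterol synthesis genes were lower in 5 of the 9 with an adjusted *P* value. *Msmo1*, a sterol C4-methyl oxidase gene, had −2.83 ± 0.6, or a 7.1-fold decrease (adjusted *P* = 0.00023). *Dhcr7* and *Sc5d*, of the last steps to cholesterol, had −2.2 ± 0.77 and −1.8 ± 0.42 (adjusted *P* = 0.034 and 0.0011). *Hmgcs1* had −1.56 ± 0.52 (adjusted *P* = 0.026), and *Lss*, the lanosterol synthase gene, −1.43 ± 0.4 (adjusted *P* = 0.0072). The mean normalized count of *Dhcr7* was only 3.538. With adjustment over all genes, *Dhcr7* and *Hmgcs1* were no longer called. Genes of the squalene steps were not called. *Sqle*, the squalene epoxidase gene, had −0.03 ± 0.25 (adjusted *P* = 0.94) and *Fdft1*, the squalene synthase gene, 0.36 ± 0.19 (adjusted *P* = 0.18). Like *Acss2*, *Fdft1* is in the class overlapped by a coding gene, whose median with a mean of at least 10 was 0.3. *Ctsb*, which overlaps *Fdft1* over 774 exonic bases on the opposite strand, was lower by −1.29 ± 0.36 (adjusted *P* = 0.0072).

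Triglyceride genes were lower in 2 of the 8 with an adjusted *P* value, or 25%. Of all genes 9.42% were lower, and of coding genes with no opposite-strand gene and a mean of at least 10, 34.4%. The share of the triglyceride genes did not exceed the latter. *Gpam*, which encodes the acyltransferase of the first step of glycerolipid synthesis, and *Dgat2*, of the last step to triglyceride, were lower by −1.91 ± 0.57 and −1.65 ± 0.4 (adjusted *P* = 0.012 and 0.0016). The other 6 genes of the group with an adjusted *P* value did not pass, with log2 fold changes from −0.75 for *Lpin2* to 1.74 for *Dgat1*. The lipid droplet genes *Cidec* and *Plin2* had 0.38 ± 0.24 and −0.49 ± 0.34. The regulators were lower in 2 of 6 cases, or 33.3%, which is near the 34.4%. Among them, *Mlxipl* was lower by −1.86 ± 0.54 (adjusted *P* = 0.01) and *Insig1*, itself an SREBP target, by −1.23 ± 0.37 (adjusted *P* = 0.014). *Srebf1*, *Srebf2*, *Scap* and *Insig2* had −0.6 ± 0.41, −0.35 ± 0.74, −1.03 ± 0.53 and −0.56 ± 0.66, and none of these passed the test.

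Hepatocyte markers moved with these genes. In DKO livers at 6M, 8 of the 10 markers were lower, all 10 had log2 fold changes below 0, and their median was −1.21. *Alb* had −1.23 ± 0.41. Of coding genes with no opposite-strand gene and a mean of at least 10, 34.4% were lower and 81.6% below 0. Values below 0 were had by 7 of 8 macrophage, 5 of 8 stellate cell and 5 of 6 endothelial markers. For cholangiocyte and proliferation markers they were 1 of 5 and 2 of 4. The only call in these 5 lists was *Csf1r*, higher by 0.81 ± 0.19, and a coding gene overlaps its exons on the opposite strand. Genes so overlapped, with a mean of at least 10, had a median of 0.3. In bulk tissue, fewer cells of a type and less RNA per cell cannot be told apart, and the part of the marker change in the lipid genes was not tested.

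**Figure D2:**
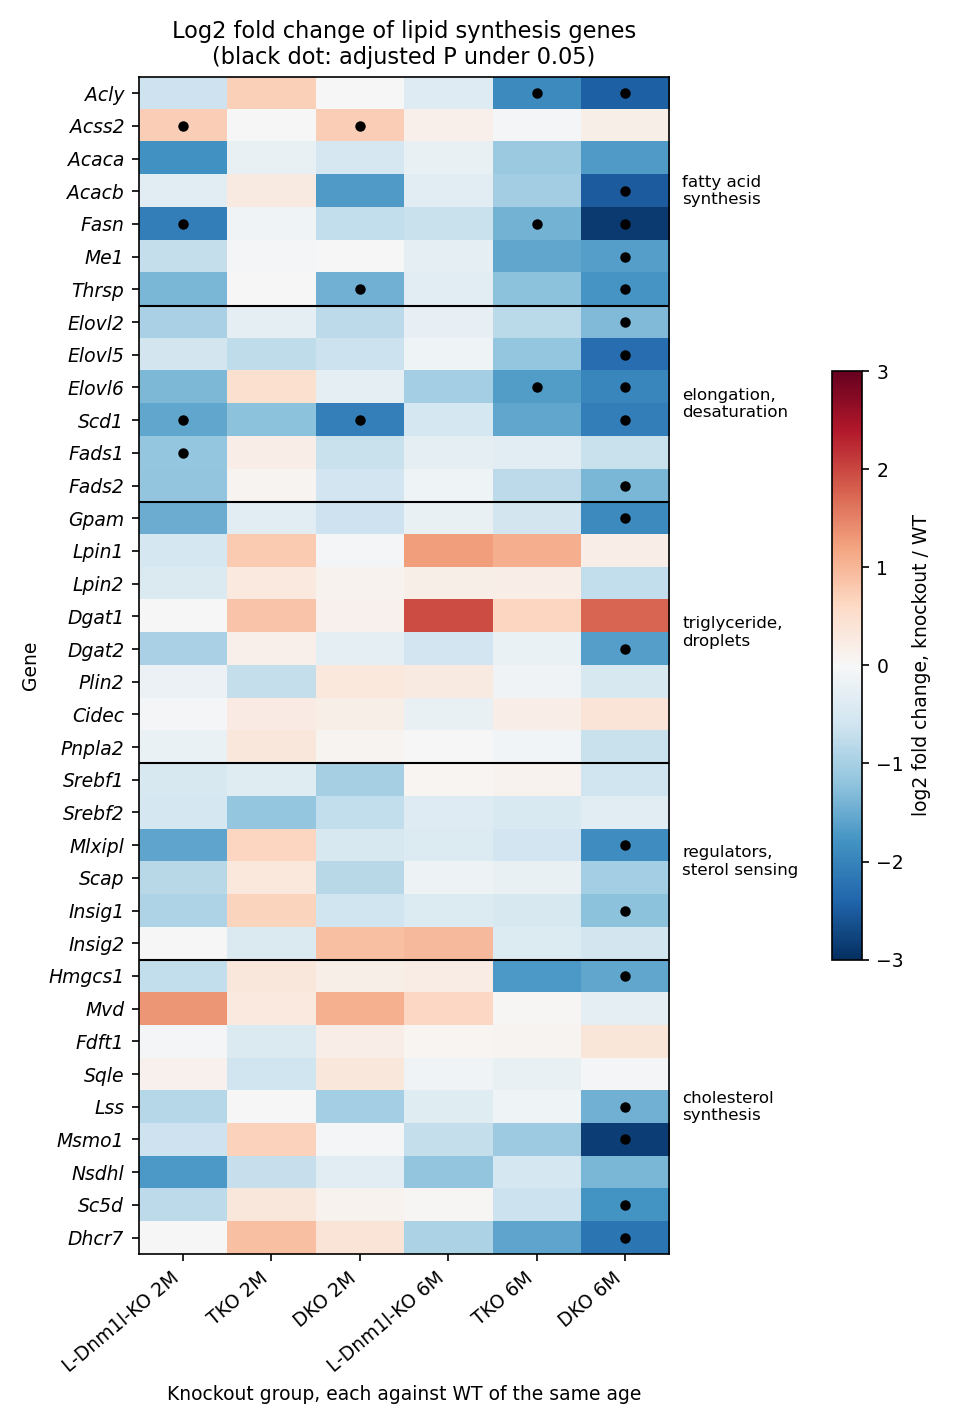
Log2 fold change of the 36 genes whose mean normalized count reached 1 (rows, by role) in the 6 comparisons with WT of the same age (columns); blue is lower than WT, red is higher, and a black dot marks an adjusted *P* value under 0.05. The DKO 6M column holds 19 dots, all on lower genes, and the TKO 2M and L-*Dnm1l*–KO 6M columns hold none.

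The DKO effect on these genes was compared between ages. The difference of the log2 fold changes at 6M and at 2M, over the root of the summed squared SEs, was tested on 12419 genes with a mean of at least 1, of which 317, or 2.55%, passed. At 6M, 3 members were further below WT than at 2M. *Msmo1* went from −0.03 ± 0.55 at 2M to −2.83 ± 0.6, a difference of −2.8 ± 0.81 (adjusted *P* = 0.029). *Acly* went from −0.02 ± 0.52 to −2.45 ± 0.52, a difference of −2.43 ± 0.73 (adjusted *P* = 0.04), and *Fasn* from −0.73 ± 0.45 to −2.86 ± 0.45, a difference of −2.13 ± 0.63 (adjusted *P* = 0.036). The values of *Scd1* at the 2 ages lay side by side, with a difference of −0.03 and a 95% interval from −1.26 to 1.2. The median difference was −0.79 over the 36 members and −0.27 over all genes tested. Of these members, 27 are coding genes with no opposite-strand gene, a class that itself moved down between the ages. Among all its genes whose mean reached 1, the median effect was −0.1 in DKO at 2M and −0.83 at 6M. For the 27 members these medians were −0.28 and −1.36. Whether the members moved further than their class was not tested. With the test run on all genes, no member passed, and with a mean of at least 10, *Elovl6* and *Sc5d* passed too, making 5. The share of all genes that passed under these settings is not given here.

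**Figure D3:**
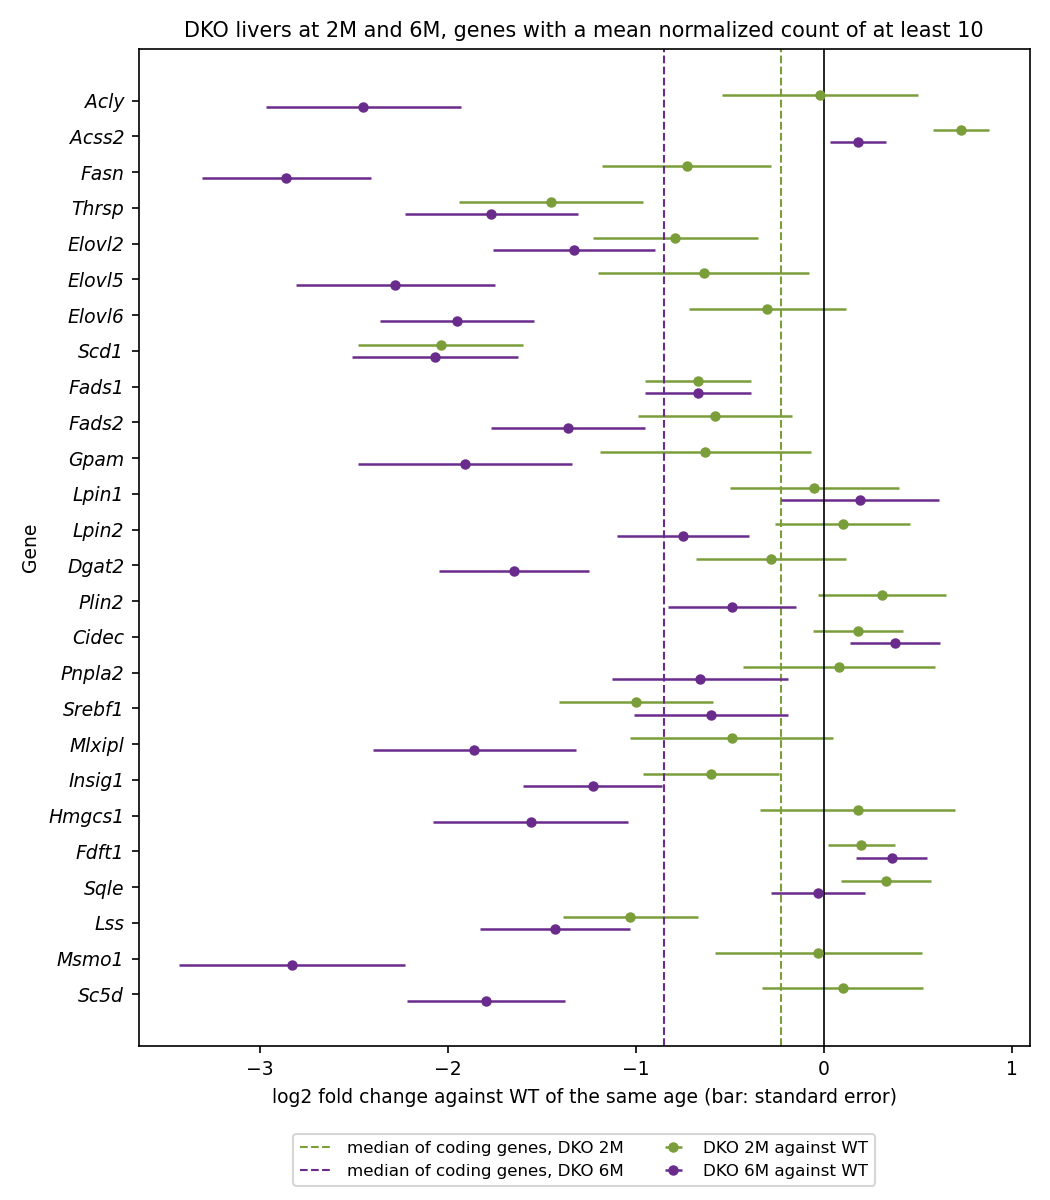
Log2 fold change against WT of the same age in DKO livers at 2M (green) and 6M (purple) for the 26 genes whose mean normalized count reached 10; bars are standard errors, and dashed lines are the medians of coding genes with no opposite-strand gene and such a mean (−0.23 and −0.85). *Acly*, *Fasn* and *Msmo1* lie far apart at the 2 ages, and *Scd1* does not.

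At 2M, DKO livers showed fewer changes in this set. *Scd1* was lower by −2.04 ± 0.44 (adjusted *P* = 0.00021) and *Thrsp* by −1.45 ± 0.49 (adjusted *P* = 0.039), and *Acss2* was higher by 0.73 ± 0.15, or 1.66-fold (adjusted *P* = 7.7e-05). The 2 lower genes were 5.88% of the 34 tested, near the 4.94% of all genes that were lower; 4.14% of all genes were higher. Among coding genes with no opposite-strand gene and a mean of at least 10, 10.5% were lower, which is also the share of the members in that class, 2 of 19. The values of *Fads1*, *Fads2*, *Cidec* and *Fdft1* were −0.67 ± 0.28, −0.58 ± 0.41, 0.18 ± 0.24 and 0.2 ± 0.18, without a call. *Srebf1* had −1.0 ± 0.41 (adjusted *P* = 0.11), and *Rai1*, which overlaps it over 109 exonic bases, was lower by −1.94 ± 0.36 (adjusted *P* = 4.3e-06). *Srebf2*, *Mlxipl*, *Scap*, *Insig1* and *Insig2* lay between −0.83 and 0.91 and did not pass. With adjustment over all genes *Thrsp* was no longer called. Of the 10 hepatocyte markers 3 were lower in this comparison, 8 had log2 fold changes below 0, and the median was −0.71; their part in the result was not tested.

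In L-*Dnm1l*–KO livers at 2M, *Fasn*, *Scd1* and *Fads1* were lower and *Acss2* was higher, and no triglyceride, regulator or cholesterol synthesis gene was called. *Fasn* had −2.08 ± 0.54, or a 4.23-fold decrease (adjusted *P* = 0.006), *Scd1* −1.56 ± 0.44 (adjusted *P* = 0.013) and *Fads1* −1.16 ± 0.3 (adjusted *P* = 0.0052). *Acss2* rose by 0.74 ± 0.15, or 1.67-fold (adjusted *P* = 0.00013). The 3 lower genes were 9.68% of the 31 tested, against 3.22% of all genes, and 3.06% of all genes were higher. In coding genes with no opposite-strand gene and a mean of at least 10, 8.69% were lower, and among such members 3 of 19, or 15.8%. Of the 19 members of that class 18 had log2 fold changes below 0, against 76.6% of its genes. The median was −0.67 over the 36 members with a mean of at least 1 and −0.09 over all such genes; less the class median of −0.46, the members with no opposite-strand exon and a mean of at least 10 had −0.31. Among hepatocyte markers 3 of 10 were lower, with a median of −0.93, and their part in the result was not tested.

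The other abundant members and the regulators did not pass the test in L-*Dnm1l*–KO livers at 2M. *Fads2* had −1.19 ± 0.43 (adjusted *P* = 0.07), *Cidec* −0.04 ± 0.24 and *Fdft1* −0.06 ± 0.18. *Mlxipl* had −1.59 ± 0.62 (adjusted *P* = 0.1), while *Gm43500*, which shares 235 exonic bases with it on the opposite strand and has a mean 7.42 times as high, was lower by −1.12 ± 0.29 (adjusted *P* = 0.0052). *Srebf1* had −0.48 ± 0.4, and *Rai1*, with a mean 2.53 times as high, was lower by −1.13 ± 0.35 (adjusted *P* = 0.028). The other regulators had −0.52 ± 0.84 for *Srebf2*, −0.83 ± 0.6 for *Scap*, −0.92 ± 0.37 for *Insig1* and −0.01 ± 0.7 for *Insig2*. *Scap* is faced over 985 bases by *5830462I19Rik*, whose mean of 565.2 is 78.5 times as high and whose value was −0.04 ± 0.12.

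At 6M, no member was called in L-*Dnm1l*–KO livers by the deposited DESeq2 test, among 30 tested, where 1.91% of all genes were higher and 1.56% lower; 2 had an unadjusted *P* value under 0.05. These were *Lpin1*, a phosphatidate phosphatase gene, with 1.25 ± 0.41 (adjusted *P* = 0.064), and *Elovl6*, with −1.02 ± 0.37 (adjusted *P* = 0.1). *Scd1*, *Acss2*, *Fdft1*, *Fads1*, *Cidec* and *Fads2* lay between −0.53 and 0.16. The regulators lay between −0.42 for *Mlxipl* and 0.98 for *Insig2*, while *Gm43500*, facing *Mlxipl*, was lower by −1.13 ± 0.29 (adjusted *P* = 0.0077). The change of the L-*Dnm1l*–KO effect from 2M to 6M passed the difference test for no member, at a background of 0.129%. In that test 4 members had an unadjusted *P* value under 0.05, and for *Fasn* the change was 1.41 with a 95% interval from 0.1 to 2.71. The shares of all genes under the unadjusted value are not given here, so the counts of 2 and 4 have no background.

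No member was called in TKO livers at 2M, where the deposited DESeq2 test called 0.0995% of all genes higher and 0.199% lower and 33 members were tested. An unadjusted *P* value under 0.05 was found for 4 of them, *Scd1* (−1.23 ± 0.44), *Plin2* (−0.72 ± 0.36), *Sqle* (−0.59 ± 0.27) and *Fdft1* (−0.44 ± 0.19). The share of all genes under that unadjusted value is not given here, so this count has no background. *Acss2*, *Fads1*, *Cidec* and *Fads2* lay between 0.02 and 0.25, and the regulators between −1.17 for *Srebf2* and 0.66 for *Insig1*. Of the 26 members with a mean of at least 10, 10 had log2 fold changes below 0, with a median of 0.12. Of all genes with such a mean, 50.2% were below 0, with a median of 0.0. Of coding genes with no opposite-strand gene and such a mean, 36.3% were below 0, also with a median of 0.12.

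At 6M, 3 members were lower in TKO livers. *Elovl6* had −1.68 ± 0.39 (adjusted *P* = 0.0079), *Acly* −1.91 ± 0.5 (adjusted *P* = 0.029) and *Fasn* −1.42 ± 0.4 (adjusted *P* = 0.047). They were 11.1% of the 27 members tested, against 0.535% of all genes lower and 0.201% higher. With adjustment over all genes, *Elovl6* alone passed. Hepatocyte markers did not move down with them: none of the 10 was called lower, 2 had log2 fold changes below 0, and the median was 0.23. *Scd1* had −1.56 ± 0.44 (adjusted *P* = 0.051) and *Hmgcs1* −1.73 ± 0.52 (adjusted *P* = 0.081), while *Gm48342*, which covers 557 exonic bases of *Hmgcs1* on the opposite strand and has a mean of 921.0 against 18.46, was lower by −1.17 ± 0.28 (adjusted *P* = 0.011). *Acss2*, *Fdft1*, *Fads1*, *Cidec* and *Fads2* lay between −0.79 and 0.21, and the regulators between −0.58 for *Mlxipl* and 0.1 for *Srebf1*. None of the members passed the test of the TKO effect at 6M minus 2M, where 0% of all genes did. In that test 8 members had an unadjusted *P* value under 0.05, the smallest being 0.00015 for *Elovl6*, with a difference of −2.15 ± 0.57. The share of all genes under the unadjusted value is not given here, so the count of 8 has no background.

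**Figure D4:**
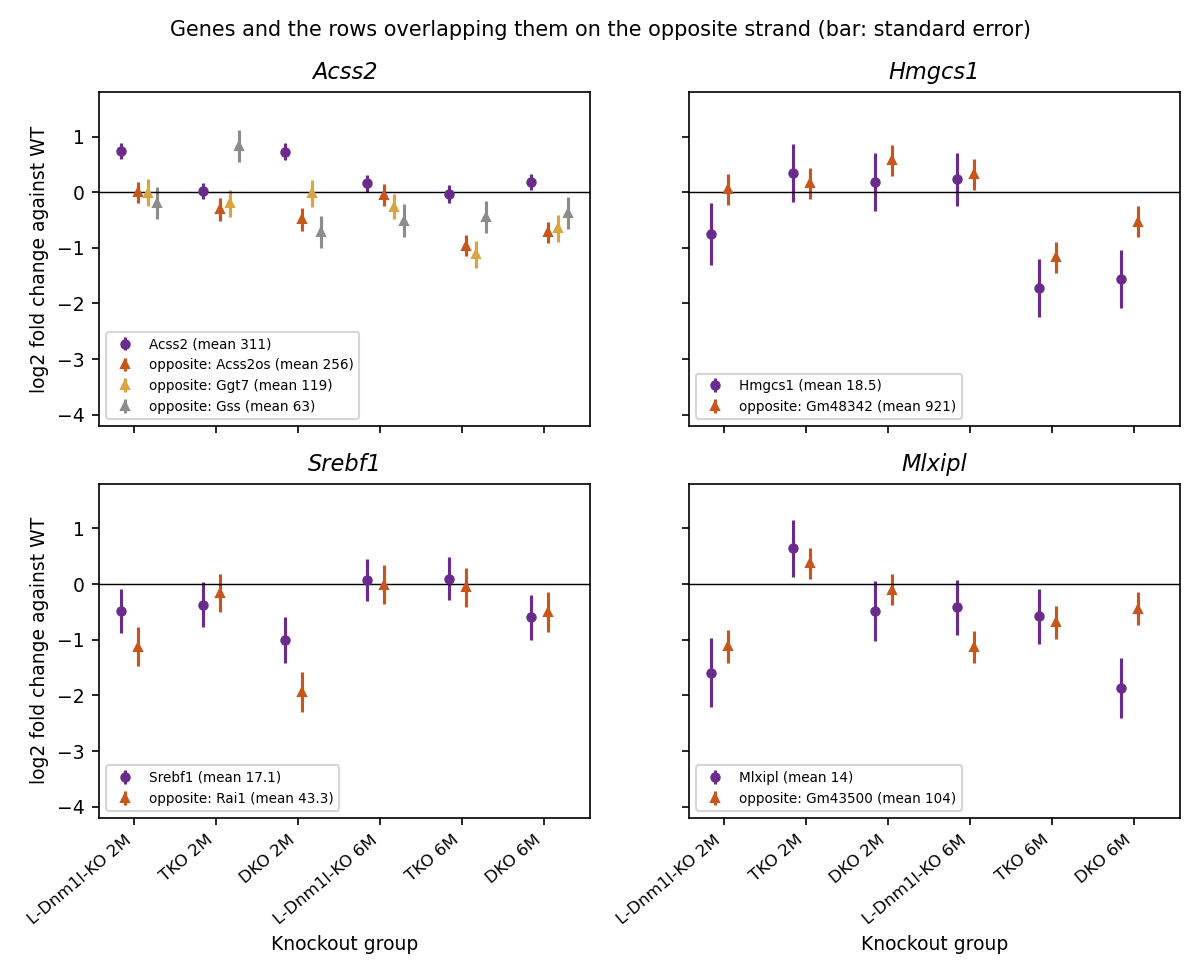
Log2 fold change against WT of the same age for *Acss2*, *Hmgcs1*, *Srebf1* and *Mlxipl* (circles) and for the rows whose exons overlap them on the opposite strand (triangles), in the 6 knockout groups; bars are standard errors, and the legend gives mean normalized counts. *Acss2* is higher at 2M in L-*Dnm1l*–KO and DKO while *Acss2os*, *Ggt7* and *Gss* are at or below 0 there.

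*Acss2* was the only member called higher in any of the 6 comparisons. Its exons are overlapped by those of *Acss2os* over 335 bases, *Gss* over 395 and *Ggt7* over 197, with means of 255.6, 62.98 and 119.4 against 310.9 for *Acss2*. In L-*Dnm1l*–KO livers at 2M these rows had 0.0 ± 0.19, −0.19 ± 0.29 and −0.01 ± 0.24, and in DKO livers at 2M −0.49 ± 0.2, −0.72 ± 0.29 and −0.02 ± 0.24, none of them called. *Acss2* in TKO livers at 2M had 0.02 ± 0.15. At 6M in TKO livers *Acss2os* and *Ggt7* were lower, by −0.96 ± 0.19 and −1.12 ± 0.24 (adjusted *P* = 0.00064 and 0.0015), and *Acss2* had −0.03 ± 0.16. In DKO livers at 6M *Acss2os* and *Ggt7* were lower too, by −0.72 ± 0.19 and −0.65 ± 0.24 (adjusted *P* = 0.0047 and 0.043), and *Acss2* had 0.18 ± 0.15.

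Of the other genes called lower in DKO livers at 6M, *Elovl6* shares 34 bases with *Gm35986*, with a mean of 0.3182. *Me1* shares 30 bases with *A330041J22Rik*, which had 0.05 ± 0.26, and *Lss* shares 381 bases with *4930483K19Rik*, which had −0.13 ± 0.25. *Gm48342* and *Gm43500*, facing *Hmgcs1* and *Mlxipl*, had −0.53 ± 0.28 and −0.44 ± 0.29 there. None of these rows was called in that comparison.

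Genotypes of 1 age were compared through their effects against shared WT libraries, with the squared SEs summed, which overstates the error. No member passed in any of the 6 differences, at backgrounds of 0.459% for TKO minus L-*Dnm1l*–KO, 0.443% for DKO minus L-*Dnm1l*–KO and 1.26% for TKO minus DKO at 2M, and of 0.0644%, 0.105% and 0.0242% in that order at 6M. Members with an unadjusted *P* value under 0.05 numbered 10, 0 and 8 at 2M and 2, 14 and 5 at 6M. The backgrounds above are of the adjusted test. The share of all genes under the unadjusted value is not given here, so these 6 counts have no background. The smallest adjusted *P* value was 0.069, for *Acss2* in TKO minus DKO at 2M, a difference of −0.71 ± 0.22. *Fasn* in DKO minus L-*Dnm1l*–KO at 6M came next, with −2.19 ± 0.59 (adjusted *P* = 0.087). For *Acss2* in DKO minus L-*Dnm1l*–KO at 2M the difference was −0.01, with a 95% interval from −0.43 to 0.41.

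The squared SEs were also averaged in place of summed. Averaging takes out the shared WT variance only where WT and knockout libraries hold equal parts of each squared SE. That was assumed and not tested, and where the knockout part is larger the error is understated. With averaging, the count of members rose to 7 in TKO minus L-*Dnm1l*–KO at 2M, at a background of 4.77%. Among them were *Fads1* (1.36 ± 0.29, adjusted *P* = 0.00033) and *Fasn* (1.97 ± 0.5, adjusted *P* = 0.0041). The count was 11 in DKO minus L-*Dnm1l*–KO at 6M, at 7.81%, all of them lower in DKO, with *Fasn* at an adjusted *P* value of 6.7e-05.

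Further genes of the same pathways were counted from lists that hold none of the members. In DKO against WT at 6M, 9.42% of all genes and 34.4% of coding genes with no opposite-strand gene and a mean of at least 10 were lower. Against these shares, 3 of 8 tested genes of sterol synthesis were lower and none higher, *Ebp* (−2.02 ± 0.43), *Pmvk* (−3.53 ± 1.31) and *Stard4* (−1.54 ± 0.58), of which all but *Stard4*, a sterol carrier gene, encode enzymes of the pathway. Of 17 tested lipogenic target genes 4 were lower there, the citrate carrier gene *Slc25a1* (−1.57 ± 0.47), the dicarboxylate carrier gene *Slc25a10* (−1.04 ± 0.38), the pyruvate kinase gene *Pklr* (−1.8 ± 0.43), and the ketoacyl-CoA reductase gene *Hsd17b12* (−1.55 ± 0.47). Of 17 triglyceride genes 1, *Apob* (−1.03 ± 0.3), was lower, and *Apob* is also among the hepatocyte markers counted as lower above. Of 12 regulators 2, the nuclear receptor genes *Rxra* (−1.07 ± 0.36) and *Nr1h3* (−1.98 ± 0.63), were lower. All lists but that of triglyceride genes lay above 9.42%. Only that of sterol synthesis lay above 34.4%, and it was near that share. The lists also hold genes outside the class of the 34.4%, such as *Slc25a10* and *Pklr*. The exons of *Pklr* are overlapped by a coding gene on the opposite strand.

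In DKO livers at 2M, *Slc25a10* (−1.47 ± 0.42) was lower, of 17 lipogenic target genes tested, and the lipase gene *Mgll* (−1.39 ± 0.37), of 15 triglyceride genes. *Rnf139* (0.62 ± 0.19), whose exons a coding gene overlaps on the opposite strand, was higher, of 11 regulators. Of all genes, 4.94% were lower and 4.14% higher in that comparison. In L-*Dnm1l*–KO livers at 2M, *Slc25a1* (−1.9 ± 0.59) was lower, of 13 lipogenic target genes tested, where 3.22% of all genes were lower. None of these further genes was called in TKO livers at either age or in L-*Dnm1l*–KO livers at 6M.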

How the data were processed

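Poly(A) RNA of mouse liver was made into strand-specific libraries by the authors and read as single 75-base reads. The authors mapped the reads to GRCm38 with HISAT2, counted them with HTSeq-counts (strand setting not given in the sources used here) and fitted DESeq2. Per gene, the signal deposited by the authors is the mean normalized count over all libraries. Their deposited log2 values are fold changes of each knockout against age-matched WT, with SEs, and the p-values deposited by the authors are Wald and Benjamini-Hochberg values. These deposited comparisons are the only values used, since counts of single libraries were not analysed here; depth per library is therefore unknown, and its effect on precision enters only through the SEs. The labels do not say that each of the 4 libraries per group came from a separate mouse, so p-values measure the spread between these libraries, which may be technical.

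The members, gene lists and tests were chosen with earlier results of these data known. Genes named are those called, the 6 members with the highest mean, members that differ between ages or genotypes, and the 6 regulators; *Elovl6*, *Lpin1*, *Plin2*, *Sqle* and other members without a call were named after their values were seen. Differences between comparisons used a two-sided z test with Benjamini-Hochberg adjustment over genes whose mean reached 1 (scipy 1.17.1, numpy 2.4.6 and pandas 2.3.3 in Python 3.11.15). The age differences were also run on simulated normal errors drawn with the deposited SEs. That run checks the arithmetic and cannot check whether the SEs are right. Genotype differences, which share WT libraries, were not simulated. Some further pathway genes are not reported here and were left out of the counts of those lists. Exon overlaps came from GENCODE M21. Alternatives were log2 fold change limits of 1 and 1.5, adjustment over all genes or over those whose mean reached 10, centring on all genes, and, added after the values were seen, subtraction of the median of coding genes with no opposite-strand gene.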

Additional observations from a re-analysis of the deposited data

Results flagged for a closer look

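In 3 members the DKO effect differed between 6M and 2M by a test of the difference itself, over 12419 genes. The log2 difference, 6M minus 2M, was −2.8 for *Msmo1*, −2.43 for *Acly* and −2.13 for *Fasn*. All 3 are coding genes with no opposite-strand gene, a class whose median with a mean of at least 10 was −0.23 in DKO at 2M and −0.85 at 6M; the part of that shift in the differences was not tested. The WT groups differ between the ages, so the 2 effects share no library. Outlying libraries could not be looked for without values per library.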

How the results depend on the processing

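No paired analysis was possible because the deposited comparisons carry no values per library, and for the same reason no library could be left out and no count model, other normalization or depth check could be run. Members called at a log2 fold change limit of 1.5 numbered 2 in L-*Dnm1l*–KO and 1 in DKO at 2M, in place of 4 and 3. With adjustment over all genes 1 was called in TKO at 6M in place of 3. In DKO at 6M the count of 19 became 15 with adjustment over all genes, 15 at the limit of 1.5 and 17 among genes whose mean reached 10. The calls lost with adjustment over all genes were those of *Me1*, *Elovl2*, *Hmgcs1* and *Dhcr7*. The share of all genes called under these settings is not given here, so these counts have no background.

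The median of members in DKO at 6M, −1.36, lay between −1.44 and −1.36 under the planned settings and was −0.52 relative to coding genes with no opposite-strand gene, the setting added after the data were seen; the same subtraction gave −0.05 in DKO at 2M in place of −0.29. The DKO effect at 6M minus 2M called 3 members, 5 among genes whose mean reached 10 and 0 over all genes. Genotype differences called no member as planned. Where the mean reached 10 the counts were 2 for TKO minus L-*Dnm1l*–KO and 1 for TKO minus DKO at 2M, and 1 for DKO minus L-*Dnm1l*–KO at 6M. The share of all genes that passed where the mean reached 10 is not given here, so these counts and the 5 above have no background. With the squared SEs averaged, to stand for removal of the shared WT variance, the counts were 7 for TKO minus L-*Dnm1l*–KO and 6 for TKO minus DKO at 2M, and 1 for TKO minus L-*Dnm1l*–KO, 11 for DKO minus L-*Dnm1l*–KO and 5 for TKO minus DKO at 6M, of 36 members each, where 4.77%, 5.7%, 0.862%, 7.81% and 9.38% of all genes passed. The test over fewer genes carries less adjustment, and averaging the squared SEs makes the error smaller by construction. For the other changes the cause was not tested. No median changed sign under the settings run.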
